A study of Homo sapiens with 6 samples.

Results

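The ERBB receptors and the growth factors that bind them were followed in MCF10DCIS.com (hereafter MCF10DCIS) breast cancer cells in which WDR5 had been silenced. The genes were chosen by name from the deposited gene table. They comprise 10 of its 26334 genes, 3 receptors (EGFR, ERBB2 and ERBB3) and 7 ligands (AREG, EREG, HBEGF, TGFA, EGF, BTC and NRG1). MCF10DCIS is a basal-like line of the MCF10A lineage that grows in mice as lesions resembling ductal carcinoma in situ. RNA-seq libraries were made from poly-A RNA of 3 shLuc samples, infected with a lentiviral hairpin against luciferase as the neutral control, and 3 shWDR5 samples, infected with the same vector carrying a hairpin against WDR5. In both vectors the U6 promoter drives the hairpin and the UbiC promoter drives TagRFP and puromycin resistance. Both groups were selected with 3 µg/ml puromycin and grown in DMEM/F12 with 5% horse serum. The medium of both also held 2 mM glutamine, 10 mM HEPES and 1.05 mM CaCl2. The medium components given in the labels name no added growth factor. The study describes a pool of WDR5 hairpins for its infections of this line, and which hairpins these 3 libraries carry is not given in the sources used here.

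ERBB receptors are transmembrane tyrosine kinases that pair with themselves or with each other when a ligand of the EGF family binds. EGFR binds most of these ligands, ERBB2 has no known ligand and acts as a partner, and ERBB3 binds neuregulins but has little kinase activity of its own, so that it signals mainly beside ERBB2 or EGFR. The ligands are made as membrane-anchored precursors that proteases of the ADAM family cut free. In mammary epithelium, amphiregulin and EGFR are known for duct growth, and non-transformed MCF10A cells depend on EGFR ligands for proliferation. Whether MCF10DCIS cells depend on them was not tested here.

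The libraries held between 38218108 and 57640167 counted reads each, and 16117 genes were deep enough to be tested. WDR5, the targeted gene and a core subunit of the H3K4 methyltransferase complexes, measured 52.6, 48.5 and 51.3 CPM (a gene's count scaled to library size and composition) in the shLuc libraries and 23.4, 24.4 and 20.8 CPM in the shWDR5 libraries, which is 44.97% of the control level (log2 fold change -1.15, SE 0.07, adjusted p = 1.86e-07). Here and below, the adjusted p comes from edgeR's quasi-likelihood test with Benjamini-Hochberg adjustment over all tested genes, and a gene rose or fell where that p was under 0.05. The change was broad: 56.5% of the tested genes passed the test, 26.6% as higher and 29.9% as lower in shWDR5, and the CPM ranges of the groups did not overlap in 62.3%. The median log2 fold change over all tested genes was -0.01. Basal keratins and integrins and the luminal keratins KRT8 and KRT18 made up most of the epithelial marker counts in every library, while KRT19, ESR1 and PGR were at most 5.03 CPM. Of the basal list (KRT5, KRT6A, KRT14, KRT17, TP63, ITGA6, ITGB4), 6 of 7 rose, and its summed level went from between 9279.5 and 9985.6 CPM to between 14419.2 and 15895.8 CPM. Of the luminal list (KRT8, KRT18, KRT19, ESR1, PGR, GATA3, FOXA1), 1 of the 6 tested genes rose and 2 fell, at a summed 3355.3 to 3617.7 CPM in shLuc and 3258.5 to 3572.6 CPM in shWDR5. CDH1 fell from between 472.5 and 510.2 CPM to between 234.4 and 247 CPM (log2 fold change -1.03, adjusted p = 5.19e-08). EPCAM fell less (log2 fold change -0.33, adjusted p = 0.00216). Markers of other cell types were low: the fibroblast list (COL1A1, COL1A2, DCN, LUM, PDGFRB) summed to 21.6 to 23.6 CPM in shLuc and 14.9 to 17.8 CPM in shWDR5, nearly all of it COL1A1, with LUM at 0 in all libraries. The leukocyte list (PTPRC, CD3E, CD68, MS4A1) summed to 10.4 to 13.0 CPM over the libraries with CD3E at 0 in all, and the endothelial list (PECAM1, VWF, CDH5) to 7.6 to 7.9 CPM in shLuc and 4.7 to 5.4 CPM in shWDR5. The part of these marker shifts in the results below was not tested, and fewer cells of a type cannot be told apart from less RNA per cell in bulk samples. Nothing in the labels says that the 3 samples of a group came from separate cultures, so the p-values measure the spread between these samples, which may be technical.

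The receptors were compared first. All 3 fell in shWDR5 cells, where 29.9% of all tested genes fell. The amounts were unequal, ERBB3 falling the most and EGFR the least. ERBB3 (chr12:56473809-56497291 in hg19, plus strand), the neuregulin receptor, measured 91.4, 88.6 and 88.2 CPM in shLuc and 41.2, 37.7 and 39.3 CPM in shWDR5. The groups lay far apart and the spread within each was small, 89.4 ± 1.73 CPM (SD, n = 3) against 39.4 ± 1.75 CPM (SD, n = 3). Its log2 fold change was -1.18 (SE 0.06, adjusted p = 3.48e-08), leaving 44.1% of the shLuc level (95% interval 40.4 to 48.2%), with an interval that overlaps that of WDR5 (40.2 to 50.2%).

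ERBB2 (chr17:37844337-37884915, plus strand), the partner receptor that is amplified in HER2-positive breast cancer, measured 157, 151 and 143 CPM in shLuc and 113, 104 and 106 CPM in shWDR5. No shWDR5 library reached the lowest control. The log2 fold change was -0.49 (SE 0.06, adjusted p = 2.39e-05), or 71.4% of the control level (95% interval 65.3 to 78.0%).

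EGFR (chr7:55086725-55275031, plus strand), the receptor of most of the ligands described below, measured 224, 238 and 213 CPM in shLuc and 187, 189 and 183 CPM in shWDR5. These groups did not overlap either, although the lowest control and the highest silenced library were close. Its log2 fold change was -0.27 (SE 0.06, adjusted p = 0.0013), or 82.7% of the control level (95% interval 76.0 to 90.1%). An antisense gene, EGFR-AS1, shares 186 exon bases with EGFR, and the sources used here do not say that reads were counted by strand, but that row held only 25 to 36 counts per library, against 8298 to 11085 for EGFR.

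**Figure D1:**
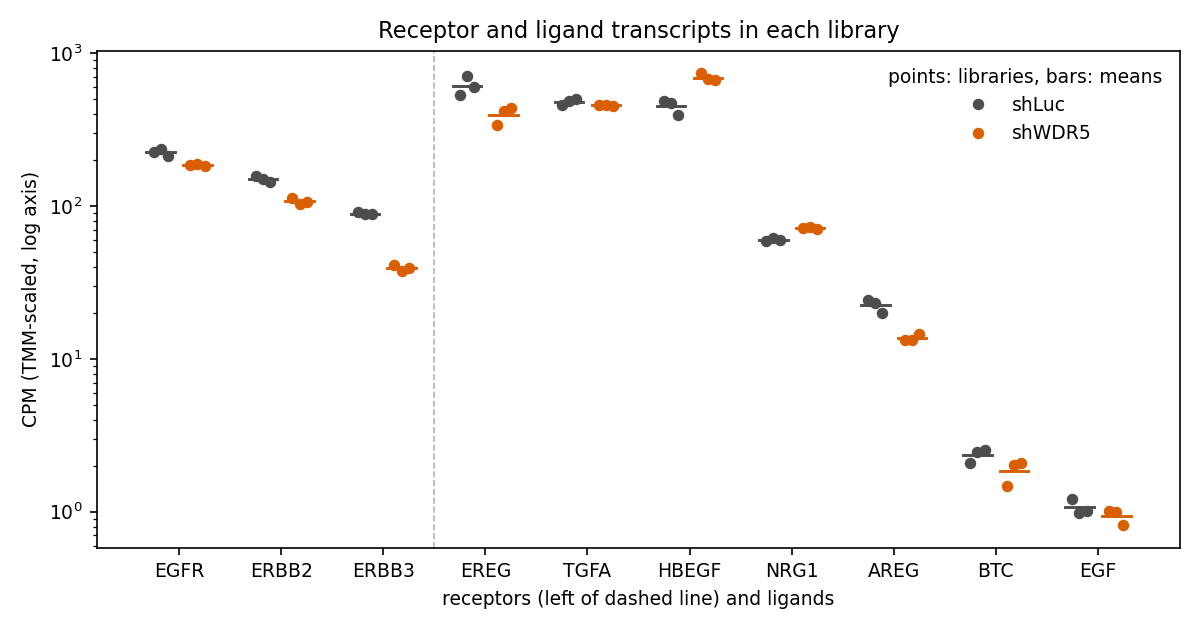
CPM of the 3 receptors and 7 ligands on a log axis, with 1 point for each of the 6 libraries and a bar at each group mean (grey, shLuc, and orange, shWDR5). All 3 receptors lie lower in shWDR5, HBEGF and NRG1 lie higher, AREG and EREG lie lower, and the TGFA and EGF points of the groups overlap.

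Of the 7 ligands, 2 rose (HBEGF and NRG1), 2 fell (AREG and EREG) and 3 did not pass the test (TGFA, BTC and EGF). Counted with the receptors, 7 of the 10 genes passed the test, against 56.5% of all tested genes, and the CPM ranges of the groups did not overlap for 8 of 10, against 62.3%. The 5 that fell were set against 29.9% of all tested genes that fell, and the 2 that rose against 26.6% that rose.

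HBEGF (chr5:139712428-139726188, minus strand), heparin-binding EGF-like growth factor, which binds EGFR and ERBB4, had the larger rise of the 2 ligands that rose. It measured 486, 471 and 396 CPM in shLuc and 739, 676 and 665 CPM in shWDR5. All silenced libraries lay well above the highest control. The log2 fold change was 0.62 (SE 0.08, adjusted p = 4.25e-05), or 154% of the control level (95% interval 137 to 173%).

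NRG1 (chr8:31497268-32622558, plus strand), a neuregulin that binds ERBB3 and ERBB4, measured 58.9, 61.5 and 59.9 CPM in shLuc and 72.3, 72.5 and 70.3 CPM in shWDR5. The rise was small, with no overlap and little spread in either group. Its log2 fold change was 0.26 (SE 0.05, adjusted p = 0.00163), or 119% of the control level. Its receptor ERBB3 fell.

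EREG (chr4:75230860-75254477, plus strand), epiregulin, a ligand of EGFR and ERBB4, had the highest mean CPM of the 10 genes in the control cells. CPM does not account for gene length, and per kilobase EREG stood below HBEGF in those cells. EREG measured 530, 714 and 599 CPM in shLuc and 338, 417 and 436 CPM in shWDR5. The groups did not overlap, but the libraries of a group differed more than for the other abundant members, 614 ± 92.8 CPM (SD, n = 3) in shLuc, and replicate 1 was the lowest library in both groups. The log2 fold change was -0.63 (SE 0.13, adjusted p = 0.00449), or 64.6% of the control level (95% interval 52.2 to 80.0%).

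AREG (chr4:75310815-75490485, plus strand), amphiregulin, an EGFR ligand, measured 24.2, 23.2 and 20.02 CPM in shLuc and 13.2, 13.4 and 14.5 CPM in shWDR5. All silenced libraries lay below all controls, with a log2 fold change of -0.72 (SE 0.09, adjusted p = 2.2e-05), or 60.9% of the control level. Its level is uncertain, because the hg19 gene model behind this row holds 2 copies of the gene (from 75310815 to 75320726 and from 75480591 to 75490485), each with 6 exons of the same lengths and 1276 exon bases. Reads that match both copies may have been dropped, since the handling of such reads is not given in the sources used here, and the length used for its level per kilobase covers both copies.

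TGFA (chr2:70674412-70781147, minus strand), transforming growth factor alpha, an EGFR ligand, measured 457, 484 and 503 CPM in shLuc and 462, 455 and 452 CPM in shWDR5. The groups overlapped. At this depth the comparison was precise, with a log2 fold change of -0.08 (SE 0.05, adjusted p = 0.242) and a 95% interval from 87.4 to 103% of the control level.

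The remaining ligands were near the lower end of detection. BTC (chr4:75671448-75719882, minus strand), betacellulin, which binds EGFR and ERBB4, had 68 to 115 counts per library. It measured 2.08, 2.48 and 2.53 CPM in shLuc and 1.47, 2.02 and 2.07 CPM in shWDR5, so that the highest silenced library lay just under the lowest control. The test did not pass (log2 fold change -0.34, SE 0.15, adjusted p = 0.0833), and the 95% interval ran from 62.7 to 100.1% of the control level. EGF itself (chr4:110834040-110934118, plus strand), the founding ligand of EGFR, had 37 to 60 counts per library, at 1.21, 0.98 and 1.02 CPM in shLuc and 1.01, 1.00 and 0.82 CPM in shWDR5. Those groups overlapped, and with a log2 fold change of -0.18 (SE 0.18, adjusted p = 0.396) the 95% interval of 67.5 to 115% of the control level holds changes of either sign, so that none was detectable at this depth.

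**Figure D2:**
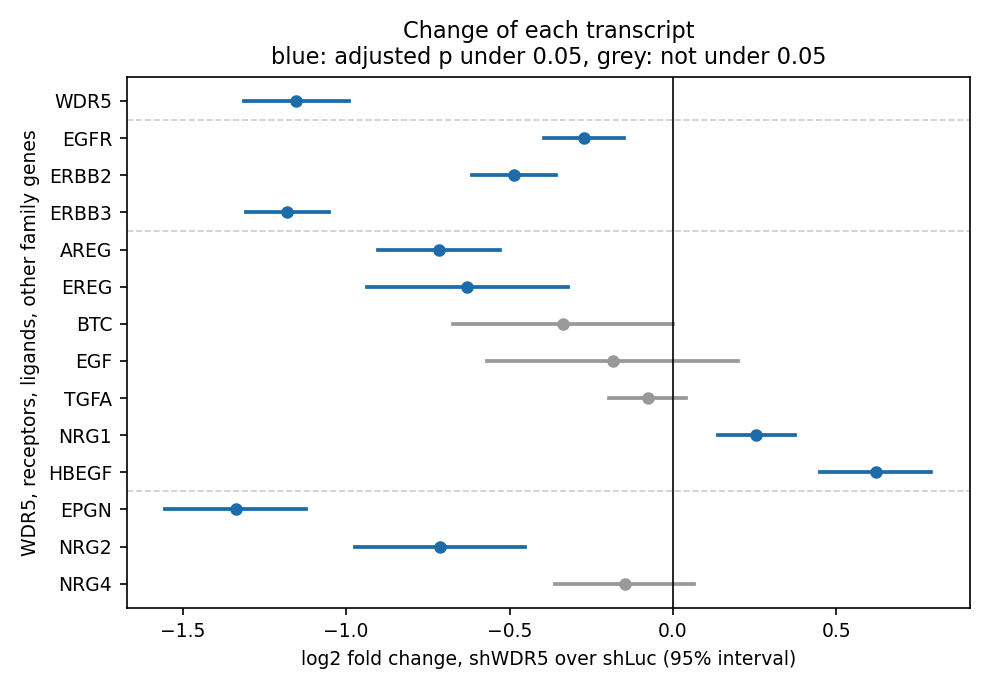
Log2 fold change of shWDR5 over shLuc with its 95% interval (points and lines) for WDR5, the 3 receptors, the 7 ligands and 3 further ligands of the family. The intervals of ERBB3 and WDR5 overlap near -1.2, those of HBEGF and NRG1 lie above 0, and those of TGFA, EGF, BTC and NRG4 reach 0.

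The family has 5 more genes that were read by level. EPGN, epigen, an EGFR ligand, had the largest fall of the family's tested genes: it measured 34.4, 38.2 and 37.3 CPM in shLuc and 12.48, 16.7 and 14.2 CPM in shWDR5, a log2 fold change of -1.34 (SE 0.10, adjusted p = 6.67e-07), or 39.6% of the control level. NRG2, a neuregulin, fell from 4.58 to 5.08 CPM in shLuc to 2.45 to 3.27 CPM in shWDR5 (log2 fold change -0.71, adjusted p = 0.000316). NRG4, which binds ERBB4, measured 7.94 to 10.5 CPM over all libraries and did not pass the test (log2 fold change -0.15, adjusted p = 0.218). The fourth receptor, ERBB4, was too low to test, with 2 to 8 counts per library. NRG3 had 0 counts in all 6 libraries, which allows up to 0.0528 to 0.0774 CPM in a library (3 counts, counting error only).

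The genes for EPGN, EREG, AREG and BTC lie side by side on chromosome 4, within 546 kb in hg19, and the table holds no other gene between them. All 4 had lower group means in shWDR5 and 3 of 4 fell, against 29.9% of all tested genes, in a window chosen after the values were seen, with the largest log2 fold change at EPGN (-1.34), then AREG (-0.72) and EREG (-0.63), while BTC at the far end (-0.34) did not pass. On chromosome 5, the ligand genes NRG2 and HBEGF lie within 500 kb, with NRG2 lower and HBEGF higher. Of the 7 tested genes in that window 1 rose and 2 fell, against 26.6% and 29.9% of all tested genes. On chromosome 17, ERBB2 lies between PGAP3 and MIEN1, with GRB7 next to MIEN1. MIEN1 measured 25.2 to 27.9 CPM in shLuc and 14.8 to 15.8 CPM in shWDR5 (log2 fold change -0.79, adjusted p = 2.41e-06) and GRB7 also fell, whereas PGAP3 measured 14.1 to 14.3 CPM in shLuc and 14.1 to 15.4 CPM in shWDR5 (log2 fold change 0.06, adjusted p = 0.535). These windows too were chosen after the values were seen.

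Upstream sequence is shown for the 3 neighbouring ligand genes that fell together and for HBEGF, which rose, so the windows were picked by direction of change. The 250 bases before the RefSeq gene start (GRCh38.p14) are written 5′ to 3′ on the gene's strand, with matches to 5 motifs in capitals: TATAAA (the box bound by TBP), TGACGTCA (cAMP response element), TGANTCA (AP-1 element), GGGCGG (GC box) and CACGTG (E-box), searched on both strands. EPGN is at chr4:74308220-74308469 (plus strand), EREG at chr4:74364895-74365144 (plus), AREG at chr4:74444886-74445135 (plus) and HBEGF at chr5:140346604-140346853 (minus).
EPGN: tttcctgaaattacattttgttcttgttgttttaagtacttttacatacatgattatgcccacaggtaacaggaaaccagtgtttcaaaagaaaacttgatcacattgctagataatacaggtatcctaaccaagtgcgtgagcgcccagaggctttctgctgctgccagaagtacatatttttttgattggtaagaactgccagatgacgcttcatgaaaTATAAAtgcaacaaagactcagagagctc
EREG: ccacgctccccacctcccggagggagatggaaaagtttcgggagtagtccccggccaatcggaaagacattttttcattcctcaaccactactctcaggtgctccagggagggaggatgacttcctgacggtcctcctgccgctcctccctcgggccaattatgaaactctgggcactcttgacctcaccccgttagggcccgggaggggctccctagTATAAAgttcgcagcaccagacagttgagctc
AREG: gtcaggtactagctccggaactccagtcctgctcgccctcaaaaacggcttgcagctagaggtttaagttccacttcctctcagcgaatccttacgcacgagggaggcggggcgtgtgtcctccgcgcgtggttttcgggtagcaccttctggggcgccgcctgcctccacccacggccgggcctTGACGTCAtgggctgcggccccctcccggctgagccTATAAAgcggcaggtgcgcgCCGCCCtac
HBEGF: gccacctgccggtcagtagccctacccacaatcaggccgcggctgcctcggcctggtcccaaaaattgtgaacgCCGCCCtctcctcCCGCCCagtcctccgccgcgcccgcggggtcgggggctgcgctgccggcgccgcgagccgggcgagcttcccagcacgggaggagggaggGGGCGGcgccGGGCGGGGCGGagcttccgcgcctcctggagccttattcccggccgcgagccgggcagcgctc

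EPGN, EREG and AREG each held TATAAA, starting 29, 32 and 29 bases before the gene start, a motif found in 10.7% of the 35116 promoter windows of the same length. BTC, their neighbour, held none of the 5 motifs in its window. Among the receptors that fell, the ERBB2 window held no TATAAA, and EGFR has 2 RefSeq windows, of which the first held none and the other held 2 matches. AREG also held TGACGTCA, starting 65 bases before the gene start, which 1.65% of windows hold, and a GC box at 9 bases. HBEGF held no TATAAA but 5 GC boxes, of which a pair overlap, where 42.6% of windows hold at least 1. GC boxes also stood in a window of TGFA, which did not pass the test (3), and in a window of EGFR, which fell (2). The HBEGF window was 76.4% G or C against 38% for EPGN, 58% for EREG and 65.2% for AREG. CACGTG (6.34% of windows) was in none of these windows, and TGANTCA (6.57%) was in none of the 4 that are printed. Entries were found for 8 of the 10 members, ERBB3 and NRG1 being the others. Of the 5 further family genes only EPGN was searched, so NRG2, which also fell, was not. A match describes the letters only, and binding of these factors was not measured here.

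Levels can be compared between genes only per length, for which RPKM (CPM divided by the exon length in kilobases) was used. In shLuc the order was HBEGF (168 to 206 RPKM), EREG (115 to 154), TGFA (96.0 to 106), EGFR (32.4 to 36.2), ERBB2 (26.1 to 28.6), ERBB3 (14.2 to 14.8) and, among the low members, AREG (7.85 to 9.5) and NRG1 (7.56 to 7.90), whose ranges overlapped, then BTC (1.58 to 1.91) and EGF (0.176 to 0.218). In shWDR5, HBEGF stood further ahead (282 to 313 RPKM), TGFA (94.8 to 96.9) had passed EREG (73.0 to 94.2) by a narrow margin, and NRG1 (9.03 to 9.31) had passed ERBB3 (6.09 to 6.66). All other neighbours among the 10 members kept non-overlapping ranges. The place of AREG in both orders is uncertain, because its length covers 2 copies of the gene with 1276 exon bases each. Divided by the length of a single copy, its RPKM would be higher. Its place below ERBB3 in shLuc and its overlap with NRG1 there depend on that length.

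Among the receptors, ERBB3 supplied 18.4 to 19.6% of the summed receptor RPKM in shLuc and 11.3 to 12.0% in shWDR5, EGFR supplied 44.1 to 46.4% and then 51.1 to 53.5%, and the share of ERBB2 overlapped between groups, at 35.3 to 36.9% and 35.2 to 36.9%. The sum of the receptors went from 72.8 to 78.0 RPKM down to 53.5 to 55.5 RPKM. Among 11 ligand genes of the family, HBEGF, EREG and TGFA together supplied 91.7 to 92.3% of the summed ligand RPKM in shLuc and 94.6 to 95.2% in shWDR5. Within that sum the share of HBEGF went from 38.2 to 45.5% up to 56.7 to 61.7%, and that of EREG from 25.3 to 31.2% down to 14.4 to 18.9%. The ratio of HBEGF to EREG was 1.8, 1.3 and 1.3 in shLuc and 4.29, 3.19 and 2.99 in shWDR5. The ligand sum was 440 to 494 RPKM in shLuc and 497 to 508 RPKM in shWDR5, with a narrow gap between the groups. These sums and shares were not tested.

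**Figure D3:**
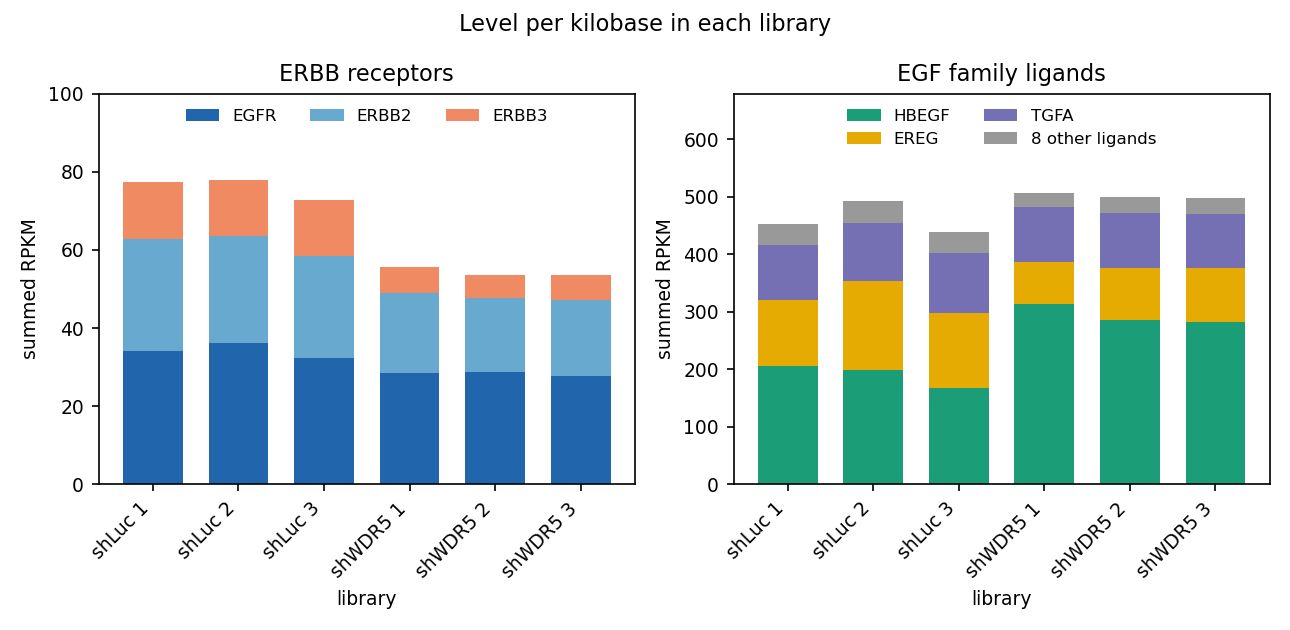
Stacked RPKM in each library for the receptors (left) and the ligands (right, with 8 further ligands in grey). The receptor bars fall from 72.8 to 78.0 RPKM in shLuc to 53.5 to 55.5 RPKM in shWDR5, while the ligand bars differ mainly in the larger HBEGF and smaller EREG parts.

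The pattern of ERBB3, the member with the smallest adjusted p, over the 6 libraries was most like that of PADI1, AGAP2, FAM63A, HERC1 and SHISA4 (Pearson's r of log2 CPM 0.9994 to 0.9997, all lower in shWDR5). With 2 groups of 3 libraries this measure mostly follows the group difference, and 2295 of the 13192 genes ranked had an r above 0.95 with ERBB3.

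Finally, 86 genes in 7 lists around the receptors were read from the same test. All 86 were tested, 23 rose, 28 fell and 35 did not pass, that is 51 of 86 against 56.5% of all tested genes, with a median log2 fold change of -0.02 against -0.01. With library sizes alone as the scale, 16 rose and 32 fell, while 3705 of all 16117 tested genes rose and 5480 fell. No list moved one way as a whole. The 23 that rose and 28 that fell, like the counts of each list below, stand against 26.6% and 29.9% of all tested genes. No list was tested as a set.

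The proteases and cofactors that shed the ligands had 1 gene up and 4 down of 9, with a median log2 fold change of -0.14. RHBDF2, iRhom2, which carries ADAM17 to the cell surface, rose from 47.8, 48.4 and 42.3 CPM to 78.6, 71.7 and 68.6 CPM (log2 fold change 0.66, SE 0.07, adjusted p = 1.24e-05). ADAM17, the main sheddase of HBEGF, TGFA, AREG and EREG, fell from between 151 and 162 CPM to between 125 and 136 CPM (log2 fold change -0.25, adjusted p = 0.00246) and is named for its role, after its value was seen. ADAM15 (log2 fold change -0.37) and ADAM19 (-0.43), related metalloproteases, also fell.

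Of 13 adaptors and exchange factors, 6 rose and 3 fell. GRB2, which links the activated receptors to RAS activation, rose to 126% of the control level (adjusted p = 0.000193), and VAV2, a guanine nucleotide exchange factor, to 135% (adjusted p = 0.000152). GRB7, an adaptor that binds ERBB2 and is its neighbour on chromosome 17, fell to 61.0% (adjusted p = 0.000263) and GAB1, a docking protein, to 73.2% (adjusted p = 0.0048).

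In the RAS, RAF, MEK and ERK list, 4 of 13 rose and 4 fell. The MEK kinases MAP2K1 and MAP2K2 rose to 125% and 127% of the control level, while NF1, which switches RAS off, fell to 69.7% and KSR1, a scaffold of the cascade, to 45.1% at only 1.38 to 3.54 CPM. MAP2K1 shares 216 exon bases with SNAPC5, and the share of its reads is uncertain to that extent. In the PI3K and AKT list, 3 of 11 rose and 3 fell: the regulatory subunits PIK3R2 and PIK3R1 rose to 159% and 123%, whereas the catalytic subunit PIK3CB fell to 66.1%. The PIK3R1 call was lost when certain single libraries were left out, with adjusted p between 0.0529 and 0.0650 without shLuc replicate 2, shWDR5 replicate 2 or shWDR5 replicate 3.

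Of 14 inhibitors and ubiquitin-pathway genes that act on the receptors, 3 rose and 5 fell. CBLB, a ubiquitin ligase, and ERRFI1, an inhibitor that binds the EGFR kinase domain, rose to 136% and 116% of the control level, and CBL, the main ubiquitin ligase of EGFR, and UBASH3B, a phosphatase that acts on CBL-bound receptors, fell to 74.5% and 66.9%. Of 12 endocytosis and sorting genes, 3 rose and 3 fell. HGS, which sorts ubiquitinated receptors on endosomes, rose to 162% and RAB7A, a GTPase of late endosomes, to 113%, while EPN2, an epsin, fell to 68.1% and TSG101, a subunit of the sorting complex ESCRT-I, to 84.2%.

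Transcripts known to respond to ERK activity moved both ways, with 3 of 14 up and 6 down and a median log2 fold change of -0.02. The immediate-early genes IER3 and EGR1 rose to 138% and 134% of the control level (adjusted p = 1.11e-05 and 0.00026). DUSP4, a phosphatase of MAP kinases, fell from 525, 521 and 556 CPM to 354, 376 and 357 CPM (adjusted p = 4.06e-06), and SPRY2, a feedback inhibitor of receptor tyrosine kinases, fell to 69.1% (adjusted p = 1.04e-05).

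**Figure D4:**
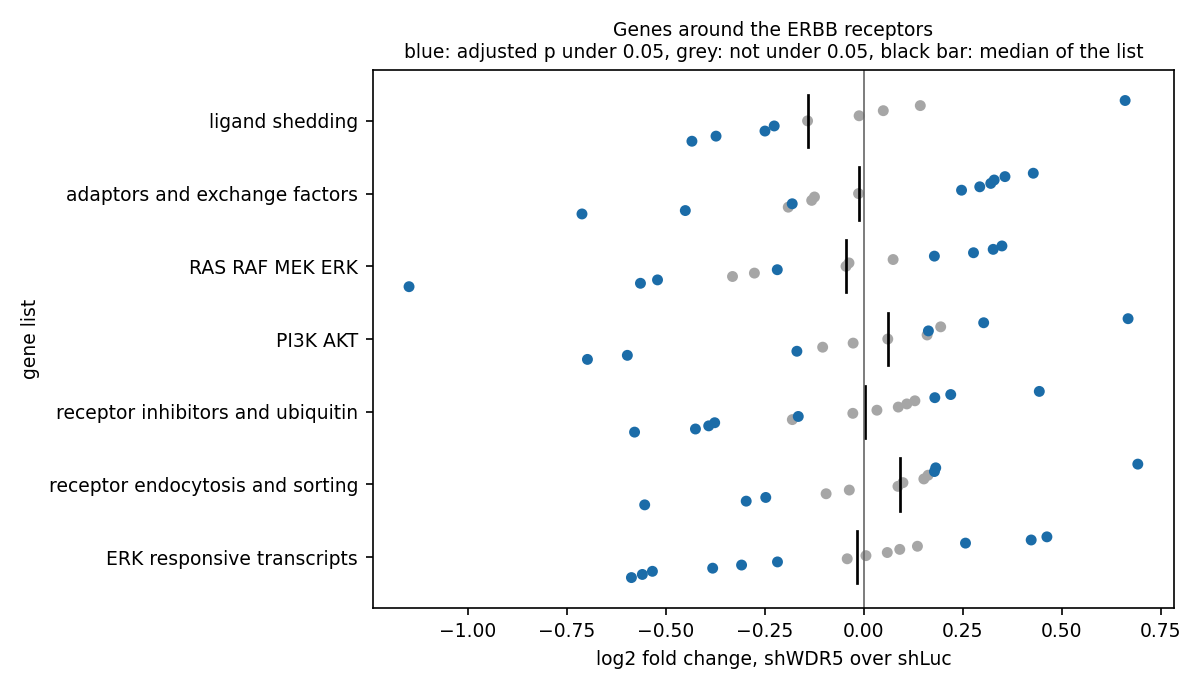
Log2 fold change of shWDR5 over shLuc for the 86 genes of the 7 lists, with 1 point a gene and a black bar at each list's median. Blue points passed the test (23 above 0 and 28 below 0, against 26.6% and 29.9% of all tested genes). Every list has blue points on both sides of 0.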

How the data were processed

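Messenger RNA of 6 MCF10DCIS libraries (3 shLuc, 3 shWDR5) was measured by poly-A RNA-seq (TruSeq kit, Illumina sequencer). Per the labels, the authors aligned reads with TopHat2 2.1.0 to hg19 (GRCh37) and counted them with featureCounts, and the deposited count table holds raw read counts per gene with exon coordinates and the summed exon length. Settings for strand and multi-mapped reads are not given in the sources used here. A further deposited file holds the authors' own edgeR 3.2.2 comparison and was not used.

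Groups were taken from the sample titles. Counts were fitted in edgeR 4.0.16 (R 4.3.3) with filterByExpr (minimum count 10), TMM factors, robust dispersions and the quasi-likelihood test of shWDR5 against shLuc over all 16117 genes kept. The SE and the 95% interval of a log2 fold change were derived from the F statistic. CPM (counts per megaread) used TMM-scaled totals of the tested genes, and RPKM divided CPM by the deposited length. Totals ranged from 38218108 to 57640167 reads. All pairs of replicates differed by more than sampling noise (chi-square per degree of freedom 7.11 to 18.2). The procedure was also run on simulated counts, with the same spread set for every gene and far fewer changed genes than were called here. Its error rates on these data were not measured.

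All 10 members and 5 further family genes were reported whatever their values, and from each pathway list up to 2 called genes in each direction with the smallest adjusted p. One gene that this rule names is not reported here. The members and lists were chosen with earlier results of these data known. Alternatives were relative log expression or library-size scaling, DESeq2 1.42.0, no low-count filter, a replicate block, leaving out each library, and the study's call criteria (absolute log2 fold change of at least 0.6 and over 0.5 RPKM). Promoter windows came from RefSeq (GRCh38.p14) and were matched by symbol, and gene coordinates are in hg19 as deposited.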

Additional observations from a re-analysis of the deposited data

How the results depend on the processing

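The 7 called members kept their direction and stayed under an adjusted p of 0.05 in all 11 refits, with the highest adjusted p for EREG (0.0186), and none reversed. Over the 41 single genes that were refitted, none reversed, 445 of 451 refitted values kept their call, 4 lost it, all PIK3R1, and 2 gained it. PIK3R1 was lost with library sizes only (adjusted p = 0.0564) and without each of 3 libraries. TGFA passed with library sizes only (log2 fold change -0.14, adjusted p = 0.046), a scale that moved the median of all genes by -0.06. Whether the replicate block is a pairing was not settled. The deviations of same-numbered libraries correlated at 0.372, 0.0358 and 0.116, which was the best match for shLuc replicates 1 and 3. For shLuc replicate 2 the best match was shWDR5 replicate 3 (0.21). With that replicate block, 10430 genes were called in place of 9103, BTC passed (log2 fold change -0.35, adjusted p = 0.0283), the receptors called stayed at 3, and the ligands called became 5 and the pathway genes 63. Under the study's criteria, which add a size and an expression minimum, 2957 genes, 1 receptor (ERBB3), 3 ligands and 6 pathway genes were called. Leaving out 1 library gave 8129 to 8841 genes, 3 receptors, 4 ligands and 43 to 50 pathway genes. Depth limits BTC, EGF and ERBB4, whose intervals are wide or which could not be tested, and the count of 2 gene copies limits the level of AREG.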
